A study of Homo sapiens with 24 samples.

Results

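The transcripts described here are those of 10 genes that prepare peptides for the class I molecules of the major histocompatibility complex (MHC), chosen by name as the proteasome subunits, transporter subunits, loading factor and peptidases of that pathway, 10 of the 60609 gene rows measured. They are PSMB8, PSMB9, PSMB10, PSME1, PSME2, TAP1, TAP2, TAPBP, ERAP1 and ERAP2. They were followed in A549 cells, an established human line from a lung adenocarcinoma, in 24 RNA sequencing libraries. The cells were transfected with pooled siRNAs to BOP1 (siBOP1), a factor needed to mature the large ribosomal subunit, or with an siRNA to firefly luciferase (siFLuc), an insect enzyme that the cells lack, as the control. After 48 h of siRNA they were mock treated or given interferon beta (IFN) at 1000 U/mL, and RNA was taken 8 h or 12 h later. This gives 8 groups of 3 libraries: siFLuc mock, siFLuc IFN, siBOP1 mock and siBOP1 IFN, each at 8 h and at 12 h. All cells were transfected, so no group shows the genes in cells that had received no siRNA. The labels do not say whether the libraries of a group came from separate cultures, so the p-values below measure the spread between these libraries, which may be technical.

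The proteasome is a barrel-shaped protease that cuts worn or faulty cytosolic proteins into peptides. Its 20S core holds 3 catalytic subunits, PSMB5, PSMB6 and PSMB7, and interferons induce replacements for them, PSMB8, PSMB9 and PSMB10, which enter newly built cores in place of PSMB5, PSMB6 and PSMB7 respectively and form the immunoproteasome. PSME1 and PSME2 together make the PA28 cap that opens the barrel. The peptides then pass into the endoplasmic reticulum (ER) through the transporter TAP, a pair of TAP1 and TAP2, are trimmed at the amino end by the ER peptidases ERAP1 and ERAP2, and are loaded on class I chains held next to TAP by TAPBP (tapasin). Cells outside the immune system, such as lung epithelium, mostly build the constitutive proteasome until an interferon signal arrives.

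Values are in TPM, transcript abundance corrected for gene length and scaled to a column total of 1000000. A gene can therefore lose TPM because others gained. The table keeps no sequencing depth, and no counting error can be given. Differences between groups are on the log2(TPM + 1) scale, from limma fitted over all 24 libraries and the 16062 genes that reached 1 TPM in 3 or more libraries, with a call at a Benjamini-Hochberg adjusted p under 0.05. Epithelial markers were present in each library, with 5 of 5 at 1 TPM or more. Their sum was 4024 to 5991 TPM in mock and 4701 to 6864 TPM in IFN libraries. KRT8 (2086 to 3089 TPM in mock) and KRT18 (1785 to 2744 TPM) stood highest. EPCAM was the lowest, with 2.2 to 5.5 TPM in mock and 1.9 to 5.2 TPM in IFN libraries. Of 7 leukocyte markers 2 reached 1 TPM in any library, CD3E and MS4A1 were at 0 in every library, and their summed level was 2.48 to 7.18 TPM in mock and 3.40 to 5.38 TPM in IFN libraries. The summed IFN range of these markers lies inside the mock range. Leukocytes build the immunoproteasome without interferon, and any part of theirs in these values was not tested. Of 3 fibroblast markers 1 reached 1 TPM, COL1A1, with 5.37 to 19.3 TPM in mock and 5.68 to 18.2 TPM in IFN libraries. Of 3 endothelial markers none reached 1 TPM. In each siBOP1 group BOP1 was at 23.5% to 29.6% of its siFLuc control. In bulk RNA a higher level in all cells and a high level in more of the cells cannot be told apart.

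Table columns and labels both number the libraries of a group, but 8 of the 24 columns, 1 in each group, carry the number 4, which the labels do not use. They were used as members of their group and are called the libraries numbered 4. Under IFN the library numbered 4 was the lowest of its group for 8 of the 10 genes in siFLuc cells at 8 h, for 9 in siFLuc cells at 12 h, for 4 in siBOP1 cells at 8 h and for 8 in siBOP1 cells at 12 h. In the mock groups it was the lowest for 3 to 5 of the 10. With libraries 1 and 2 alone all 10 genes were still called higher under IFN in each of the 4 comparisons below.

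The start sites of the 10 genes are shown first, since type I interferon acts through a known promoter element, the interferon-stimulated response element, whose core is a pair of GAAA runs. The letters GAAANNGAAA were searched on both strands in windows from 250 bases before to 50 bases after each annotated start (RefSeq, GRCh38.p14), where N is any base. All 10 genes had a window, and 9 of the 10 held the motif. Over all 35116 windows 3.57% held it, and over 27305 genes 4.38% did. Genes with several windows had more chances to hold it. Each stretch below reads 5′ to 3′ on the strand of the gene and is 40 bases long. The motif is in capitals, and reads TTTCNNTTTC where it lies on the other strand.
PSMB8, chr6:32844027-32844066, minus strand: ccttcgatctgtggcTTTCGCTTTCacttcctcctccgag
PSMB10, chr16:67936847-67936886, minus strand: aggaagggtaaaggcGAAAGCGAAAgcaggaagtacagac
PSME1, chr14:24136184-24136223, plus strand: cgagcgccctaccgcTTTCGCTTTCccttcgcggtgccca
PSME2, chr14:24146614-24146653, minus strand: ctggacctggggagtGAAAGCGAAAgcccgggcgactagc
TAP1, chr6:32853811-32853850, minus strand: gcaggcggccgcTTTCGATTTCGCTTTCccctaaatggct
TAP2, chr6:32838773-32838812, minus strand: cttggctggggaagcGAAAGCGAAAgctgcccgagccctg
TAPBP, chr6:33314071-33314110, minus strand: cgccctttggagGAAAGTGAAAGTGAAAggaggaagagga
ERAP1, chr5:96807919-96807958, minus strand: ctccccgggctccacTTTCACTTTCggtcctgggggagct
ERAP2, chr5:96876455-96876494, plus strand: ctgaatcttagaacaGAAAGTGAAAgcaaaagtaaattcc
The motif lay at or near the start in 8 of these stretches, between 58 bases before the start and 14 bases after it, counting the start as 0. In TAP1 it lay further upstream, from 134 to 119 bases before the start. In TAP1 and TAPBP 2 overlapping copies share a GAAA run, which gives 3 runs in a row. For PSMB8 and ERAP2 the motif was in the second of the annotated windows. The RefSeq window of PSMB9, at 32853942 to 32854241 of chromosome 6, did not hold these letters. GENCODE 29, used for the gene positions below, begins PSMB9 at 32844136, and that start was not searched. The RefSeq starts of PSMB9 and TAP1 lie 488 bases apart on opposite strands of chromosome 6, and the capitals of the TAP1 stretch are 354 to 369 bases upstream of the PSMB9 start. The letters TTCNNNGAA, the core of the element known from the response to interferon gamma, were in a window of 2 of the 10 genes (PSMB8 and TAP1), against 9.38% of all genes. Of the constitutive subunits PSMB5 was searched. It held no GAAANNGAAA and 2 matches of TTCNNNGAA. A match describes letters and not binding.

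IFN raised all 10 transcripts, with both siRNAs and at both times. The largest rises were those of TAP1 and PSMB9, by about 4 on the log2 scale, and the smallest those of TAPBP and PSME1. For each of the 10 genes the lowest of the 12 IFN libraries was above the highest of the 12 mock libraries. In siFLuc cells at 8 h 10 of 10 were called higher, against 5.77% of all genes tested. At 12 h it was again 10 of 10, against 7.06%. In siBOP1 cells 10 of 10 were called at 8 h, against 5.99%, and 10 of 10 at 12 h, against 7.17%. The median change of the 10 was 1.90, 2.01, 2.20 and 2.16 in these 4 comparisons, and that of all genes tested -0.09, -0.06, -0.14 and -0.08. A median-of-ratios rescaling moved the median of all genes in siBOP1 cells at 8 h from -0.14 to -0.01, a shift of over 0.1, and the median of the 10 genes there to 2.35. All 10 were called higher in each of the 4 comparisons under each alternative that was run. Ordered by log2 change among the 16062 genes in siFLuc cells at 8 h, the 10 stood between place 55 (TAP1) and place 350 (PSME1).

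**Figure D1:**
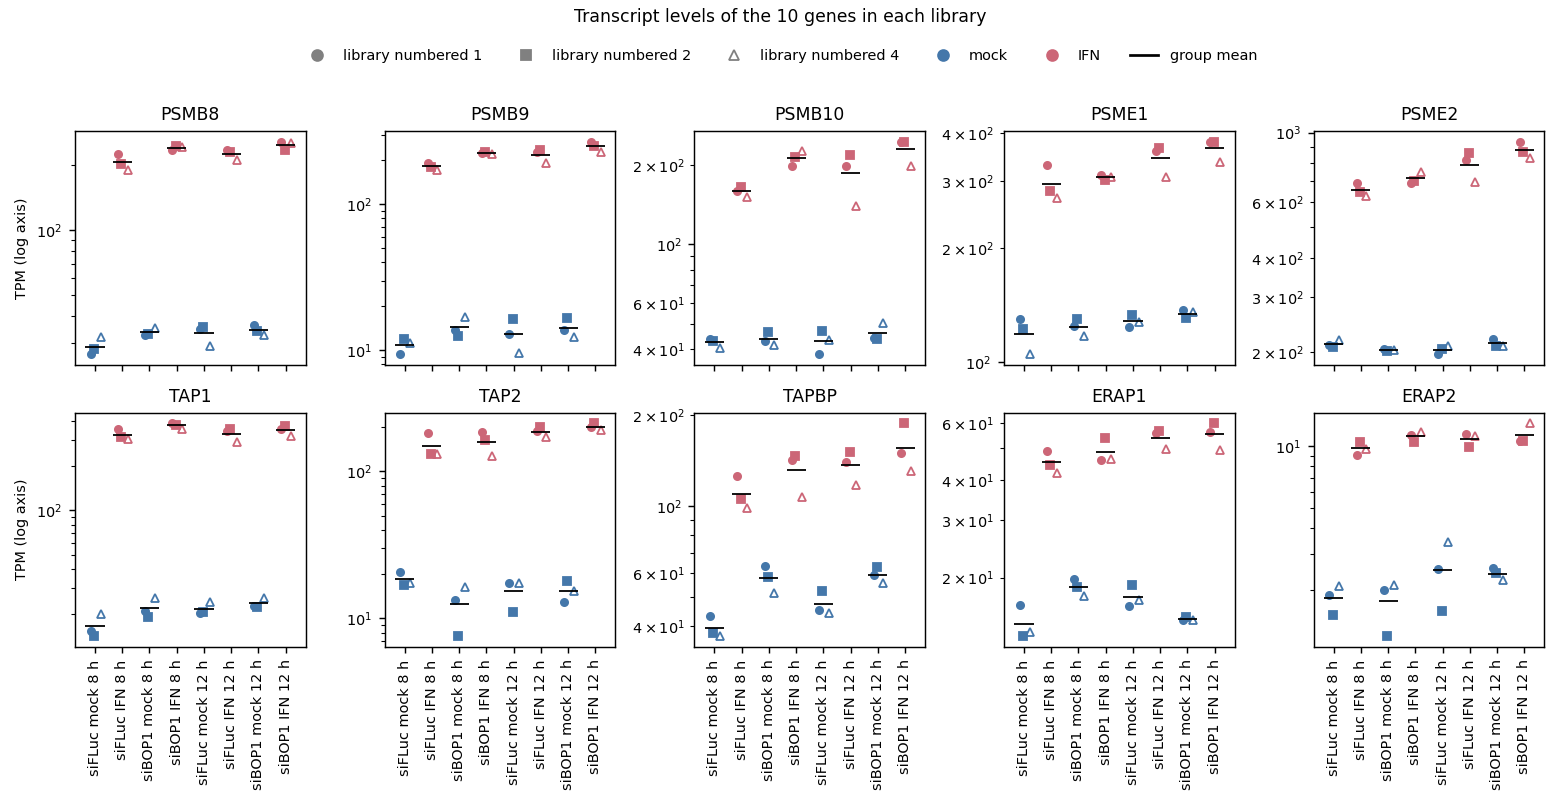
TPM (log axis) of the 10 genes in each of the 24 libraries, by siRNA, treatment and time. Symbols give the number of the library, colours the treatment, and bars the mean of 3 libraries. In each panel the 12 IFN libraries lie above the 12 mock libraries, and under IFN the open triangles of the libraries numbered 4 are often the lowest of their group.

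The inducible catalytic subunits came from different starting levels. PSMB8 (ENSG00000204264.11; chromosome 6, 32840717 to 32844703, minus strand), which takes the place of PSMB5, had 26.6, 28.3 and 32.0 TPM in the siFLuc mock libraries at 8 h and 225, 202 and 189 TPM in the siFLuc IFN libraries. The 3 IFN libraries were all far above the 3 mock libraries, with means of 28.98 ± 2.72 and 206 ± 18.0 TPM (SD, n = 3 each), or 7.09-fold. On the log2 scale PSMB8 rose by 2.79 (SE 0.09, limma adjusted p 6.73e-16), while siFLuc cells at 12 h, siBOP1 cells at 8 h and siBOP1 cells at 12 h had rises of 2.72, 2.79 and 2.81. PSMB8 had a lowest, median and highest value of 26.6, 33.0 and 36.6 TPM over the 12 mock libraries and 189, 234 and 256 TPM over the 12 IFN libraries. The 4 changes lay within 0.1 of each other, the narrowest span of the 3 inducible subunits.

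PSMB9 (ENSG00000240065.8; chromosome 6, 32844136 to 32859585, plus strand), which takes the place of PSMB6, was the lowest of the 3 inducible subunits without IFN. It had 9.35, 12.0 and 11.2 TPM in the siFLuc mock libraries at 8 h and 193, 181 and 173 TPM under IFN. The groups did not overlap, and PSMB9 went from below PSMB10 in each mock library to above it in the siFLuc IFN libraries at 8 h. The means were 10.9 ± 1.36 and 182 ± 10.1 TPM (SD, n = 3 each), or 16.8-fold, with a log2 change of 3.95 (SE 0.15, limma adjusted p 9.64e-15). In the other 3 comparisons PSMB9 rose by 4.0, 3.89 and 4.05. PSMB9 had a lowest, median and highest value of 9.35, 12.7 and 16.8 TPM over the 12 mock libraries and 173, 226 and 269 TPM over the 12 IFN libraries. The whole TAP1 gene lies inside the annotated span of PSMB9 on the opposite strand (8770 bases), as do part of PSMB8 (568 bases) and, on the PSMB9 strand, part of PSMB8-AS1. The library kit marks strand, but whether the counting used it is not stated, so the values of these neighbours are uncertain to that extent.

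PSMB10 (ENSG00000205220.12; chromosome 16, 67934502 to 67937087, minus strand), the replacement for PSMB7, was already at 43.8, 43.2 and 40.4 TPM in the siFLuc mock libraries at 8 h and reached 159, 166 and 152 TPM under IFN. It had the highest mock level of the 3 and, with no overlap of the groups, the smallest rise. Its log2 change was 1.88 (SE 0.13, limma adjusted p 2.63e-10), or 3.74-fold of the means, and 2.07, 2.25 and 2.29 in the other 3 comparisons. PSMB10 had a lowest, median and highest value of 38.2, 43.6 and 50.2 TPM over the 12 mock libraries and 139.7, 199 and 245 TPM over the 12 IFN libraries. Under IFN at 12 h the libraries of siFLuc cells were at 199, 219 and 139.7 TPM, and the low one was the library numbered 4. A further annotated gene on the same strand, AC040162.1, shares 1516 bases with PSMB10 and was at a mean of 4.12 TPM in mock and 8.25 TPM in IFN libraries.

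The constitutive subunits that these 3 displace did not follow them. PSMB5 had 253, 244 and 276 TPM in the siFLuc mock libraries at 8 h and 208, 227 and 248 TPM under IFN. PSMB6 had 235, 217 and 279.8 TPM and 237, 213 and 263 TPM, and PSMB7 had 255, 286 and 299 TPM and 310.4, 321 and 303 TPM. In siFLuc cells at 8 h the mock and IFN libraries overlapped for PSMB5 and PSMB6 and lay apart for PSMB7, with the IFN libraries higher. At 12 h the PSMB5 libraries lay apart with both siRNAs, and the IFN libraries were the lower ones. The 4 changes of PSMB5 were -0.18, -0.16, -0.16 and -0.27, in the order siFLuc at 8 h, siFLuc at 12 h, siBOP1 at 8 h and siBOP1 at 12 h, and the last passed the limma threshold (adjusted p 0.0343). With the library number as a block, or after quantile normalization, it passed as lower in all 4, and after median-of-ratios rescaling in none. PSMB6 changed by -0.04, 0.01, -0.04 and -0.07 and was not called. PSMB7 changed by 0.16, 0.24, 0.25 and 0.38, with limma adjusted p of 0.194, 0.0291, 0.019 and 0.000652. It was called higher in 3 of the 4, in 2 after median-of-ratios rescaling and in 1 after quantile normalization.

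**Figure D2:**
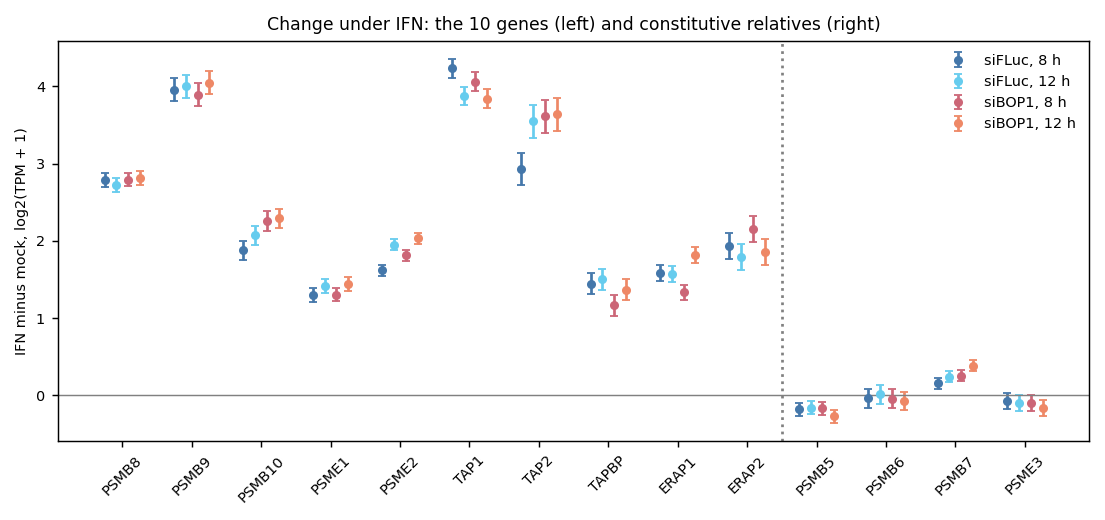
Change under IFN (log2(TPM + 1), IFN minus mock) of the 10 genes and, right of the dotted line, of PSMB5, PSMB6, PSMB7 and PSME3, in each siRNA and time. Points are limma estimates and bars their standard errors. The 10 genes lie between 1.17 and 4.23, and the 4 constitutive relatives between -0.27 and 0.38.

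Since TPM is corrected for length, each inducible subunit can be set against the subunit it replaces in the same library. Its share of the summed TPM of the pair does not depend on the column total. PSMB8 made up 9.52, 10.4 and 10.4% of the summed TPM of PSMB8 and PSMB5 in the siFLuc mock libraries at 8 h, and 51.9, 47.1 and 43.3% under IFN. PSMB9 made up 3.82, 5.23 and 3.86% of PSMB9 and PSMB6, and 44.9, 45.9 and 39.7% under IFN. PSMB10 made up 14.7, 13.1 and 11.9% of PSMB10 and PSMB7, and 33.8, 34.0 and 33.3% under IFN. At the transcript level the inducible partner thus went from a minor share of each pair to one near that of its counterpart for PSMB8 and PSMB9, and stayed below it for PSMB10.

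Over all libraries the PSMB8 share was 9.52% to 12.8% in mock and 43.3% to 54.2% in IFN libraries. The PSMB9 share was 3.40% to 7.01% and 39.7% to 53.4%. The PSMB10 share was 11.9% to 17.2% and 32.0% to 43.1%. No IFN library reached down to a mock library in any pair, and no PSMB10 share passed that of PSMB7. The log2 ratio of the pair, with 1 TPM added to each subunit, rose under IFN by 2.97 for PSMB8, by 4.01 for PSMB9 and by 1.86 for PSMB10. The added 1 TPM weighs most on PSMB9, the lowest of the 3 in mock cells, and understates its rise. The two-sided exact permutation test within the 4 siRNA and time strata gave p = 1.25e-05 for each, and 1.25e-05 after adjustment over the 3 pairs, the smallest that its 160000 relabelings can give. By library number the rise was 2.89 to 3.04 for PSMB8, 3.90 to 4.14 for PSMB9 and 1.77 to 1.93 for PSMB10. These are shares of transcripts, and the protein content of the proteasome was not measured.

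**Figure D3:**
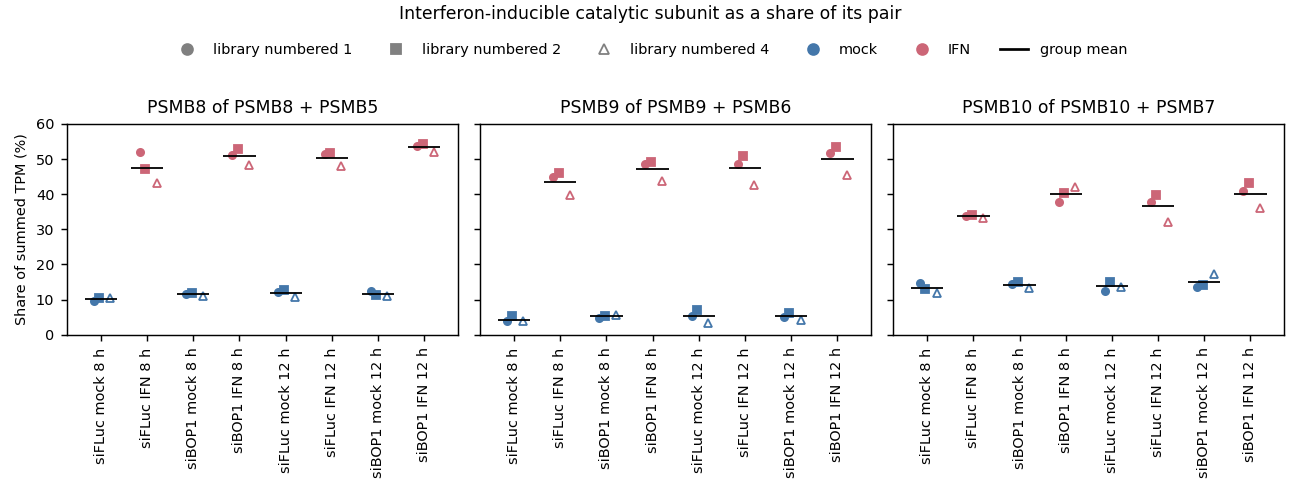
Share of the inducible subunit in the summed TPM of each pair (percent), for PSMB8 with PSMB5, PSMB9 with PSMB6 and PSMB10 with PSMB7, in each of the 24 libraries. Bars are means of 3 libraries. IFN libraries lie at 32.0% or more and mock libraries at 17.2% or less.

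The PA28 subunits were the highest of the 10 in the mock groups, and PSME2 remained so under IFN, where TAP1 stood above PSME1 in mean at 8 h. PSME1 (ENSG00000092010.15; chromosome 14, 24136158 to 24138967, plus strand) had 129.9, 122 and 105 TPM in the siFLuc mock libraries at 8 h and 329.9, 282 and 270.3 TPM under IFN. PSME2 (ENSG00000100911.16; chromosome 14, 24143362 to 24147570, minus strand) had 211, 209 and 219 TPM and 689.6, 646 and 630.3 TPM. Both were higher in all 3 IFN libraries, and PSME2 was the highest of the 10 genes in each of the 8 groups. On the log2 scale, in the same order as above, the rises of PSME1 were 1.30, 1.42, 1.31 and 1.44 (SE 0.09 each) and those of PSME2 1.62, 1.95, 1.81 and 2.03 (SE 0.07 each). The largest limma adjusted p of these 8 changes was 4.37e-10. PSME1 had a lowest, median and highest value of 105, 129 and 137 TPM over the 12 mock libraries and 270.3, 321 and 381 TPM over the 12 IFN libraries. PSME2 had a lowest, median and highest value of 197, 209 and 220.3 TPM over the 12 mock libraries and 630.3, 728 and 937 TPM over the 12 IFN libraries. PSME2 shares 888 bases with RNF31 on the opposite strand, which went from a mean of 21.5 to 40.99 TPM. PSME3, which forms a different cap of the same family, had changes of -0.07, -0.10, -0.10 and -0.17 and was not called, except as lower in siBOP1 cells at 12 h after quantile normalization (adjusted p 0.0263).

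TAP1 and TAP2 encode the paired subunits of the peptide transporter. TAP1 (ENSG00000168394.11; chromosome 6, 32845209 to 32853978, minus strand) had 15.4, 14.1 and 19.8 TPM in the siFLuc mock libraries at 8 h and 357, 313 and 302 TPM under IFN. It went from the lower part of the order of the 10 genes to the upper part: by mean it was the seventh of 10 in siFLuc mock cells at 8 h, and second, overlapping PSME1, under IFN. Its log2 change of 4.23 (SE 0.12, limma adjusted p 1.49e-16), 19.7-fold of the means, was the largest of the 10 there. The remaining rises were 3.87, 4.06 and 3.84. TAP1 had a lowest, median and highest value of 14.1, 20.7 and 25.6 TPM over the 12 mock libraries and 291, 355 and 388 TPM over the 12 IFN libraries. TAP2 (ENSG00000204267.15; chromosome 6, 32821833 to 32838780, minus strand) had 20.8, 16.9 and 17.5 TPM and 181, 131 and 131 TPM. The 2 subunits overlapped in these mock libraries. In the other 3 mock groups each TAP1 library was above each TAP2 library, with 20.8, 18.9 and 25.6 TPM of TAP1 against 13.3, 7.60 and 16.4 TPM of TAP2 in siBOP1 cells at 8 h. Under IFN each TAP1 library was above each TAP2 library of its group, with both siRNAs and at both times.

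The TAP2 rise was 2.93 in siFLuc cells at 8 h (SE 0.21, limma adjusted p 9.3e-10). Elsewhere TAP2 had rises of 3.55, 3.61 and 3.64. Its standard error was the largest of the 10 genes. In the siBOP1 mock libraries at 8 h it had 13.3, 7.60 and 16.4 TPM, with the library numbered 2 at the lowest value of all 24. TAP2 had a lowest, median and highest value of 7.60, 16.7 and 20.8 TPM over the 12 mock libraries and 128, 183 and 213 TPM over the 12 IFN libraries. A further annotated gene on the same strand, AL669918.1, covers TAP2 and went from a mean of 2.96 to 14.2 TPM, so part of the reads could count for either. ABCB9, a relative of TAP that moves peptides into lysosomes, was at 4.34 TPM or less in all libraries and was not called.

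TAPBP (ENSG00000231925.11; chromosome 6, 33299694 to 33314387, minus strand), which bridges TAP and the class I molecule, had 43.2, 38.2 and 37.2 TPM in the siFLuc mock libraries at 8 h and 126, 105 and 98.3 TPM under IFN. The groups lay apart, at 2.78-fold of the means. The log2 rises were 1.44, 1.50, 1.17 and 1.37 (SE 0.14 each), and the largest limma adjusted p was 2.65e-06, in siBOP1 cells at 8 h. TAPBP had a lowest, median and highest value of 37.2, 52.1 and 63.3 TPM over the 12 mock libraries and 98.3, 136 and 188 TPM over the 12 IFN libraries. TAPBP had the smallest gap of the 10 between the highest mock and the lowest IFN library, relative to its level.

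The ER peptidases were the lowest of the 10 under IFN. In mock cells this held for ERAP2, while ERAP1 was above PSMB9 in the mean of each group. ERAP1 (ENSG00000164307.13; chromosome 5, 96760810 to 96808100, minus strand) had 16.5, 13.2 and 13.6 TPM in the siFLuc mock libraries at 8 h and 49.2, 44.6 and 42.1 TPM under IFN. ERAP2 (ENSG00000164308.16; chromosome 5, 96875939 to 96919716, plus strand), its neighbour, had 1.89, 1.50 and 2.08 TPM and 9.04, 10.5 and 9.74 TPM. Both pairs of groups lay apart, and in each library ERAP1 was above ERAP2. ERAP1 rose by 1.59, 1.58, 1.33 and 1.82 on the log2 scale (SE 0.10 each). ERAP2 rose by 1.93, 1.79, 2.15 and 1.86 (SE 0.17 each), with a largest limma adjusted p of 8.44e-08. ERAP1 had a lowest, median and highest value of 13.2, 16.4 and 19.8 TPM over the 12 mock libraries and 42.1, 49.7 and 59.8 TPM over the 12 IFN libraries. ERAP2 had a lowest, median and highest value of 1.20, 2.10 and 3.43 TPM over the 12 mock libraries and 9.04, 10.6 and 12.9 TPM over the 12 IFN libraries. At levels of 1 to 3 TPM the added 1 TPM of the log2 scale understates the ERAP2 change: the ratio of the means was 5.34-fold in siFLuc cells at 8 h and 4.33-fold at 12 h. An antisense gene, AC009126.1, spans all of ERAP2 and was at a mean of 0.801 TPM in mock and 1.08 TPM in IFN libraries. CAST, on the opposite strand, shares 18786 bases with ERAP1 and was itself at a mean of 217 TPM in mock and 316 TPM in IFN libraries.

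The order of the levels, which TPM allows between genes, was the same at both ends in all groups, with PSME2 first and ERAP2 last. In siFLuc mock cells at 8 h it ran PSME2, PSME1, PSMB10, TAPBP, PSMB8, TAP2, TAP1, ERAP1, PSMB9 and ERAP2. The neighbours PSMB10 and TAPBP, TAP2 and TAP1, and TAP1 and ERAP1 overlapped. In siFLuc IFN cells at 8 h it ran PSME2, TAP1, PSME1, PSMB8, PSMB9, PSMB10, TAP2, TAPBP, ERAP1 and ERAP2. There TAP1 and PSME1, PSMB8 and PSMB9, and PSMB10 and TAP2 overlapped. Together the 10 transcripts held 497 to 564 TPM in mock and 1999 to 2858 TPM in IFN libraries.

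The other proteasome genes are given by module. Of 11 other 20S core subunits 7, 7, 6 and 6 were called higher (siFLuc at 8 h, siFLuc at 12 h, siBOP1 at 8 h, siBOP1 at 12 h, the order of all counts below), with medians of 0.41, 0.38, 0.37 and 0.27. The largest in siFLuc cells at 8 h were the structural alpha-ring subunits PSMA4, PSMA2, PSMA3 and PSMA6, with log2 changes of 0.84, 0.68, 0.54 and 0.49 (limma adjusted p 3.04e-08, 1.51e-05, 0.001 and 0.000214). PSMA4 went from 428, 428 and 477 TPM to 772, 841 and 769 TPM there, with no overlap. A single core subunit, PSMA7, was called lower, in siFLuc cells at 12 h (-0.23), a gene named here after its value was seen. With the library number as a block 7 were called higher in each comparison and 0, 1, 0 and 1 lower. After the rescalings 5 to 7 of the 11 were called higher, and after quantile normalization 1 to 3 were called lower. Without a block or rescaling, 5.77%, 7.06%, 5.99% and 7.17% of all genes tested were called higher. The shares called lower were 5.07%, 6.43%, 9.11% and 7.58%.

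The 19S regulatory particle, the lid and base that recognise and unfold ubiquitin-tagged proteins, had no subunit among the called rises. Of its 19 tested subunits 0 were called higher. By limma 1, 1, 3 and 0 were called lower, against 5.07%, 6.43%, 9.11% and 7.58% of all genes tested. These shares are for the fit without a block or rescaling. The medians of the 19 subunits were -0.10, -0.14, -0.13 and -0.10. With the library number as a block 3, 7, 6 and 3 were called lower, after quantile normalization 4, 8, 8 and 6, and after median-of-ratios rescaling 0 in each. PSMC2, an ATPase of the base, was the one called in siFLuc cells at 8 h (-0.32, adjusted p 0.029). PSMD6 at 12 h, and PSMC2, PSMC3 and PSMD6 in siBOP1 cells at 8 h, were the others, named after their values were seen. Of 8 other activators, inhibitor and assembly factors 1, 1, 2 and 1 were called higher, against 5.77%, 7.06%, 5.99% and 7.17% of all genes. PSMF1, the inhibitor known as PI31, was one of them each time, with changes of 0.98, 1.17, 1.11 and 1.19 (adjusted p 0.000127 in siFLuc cells at 8 h). The assembly chaperone PSMG2 was the other in siBOP1 cells at 8 h. PSMF1 had 145, 137 and 182 TPM in the siFLuc mock and 329.6, 256 and 331 TPM in the siFLuc IFN libraries at 8 h. With the library number as a block 1, 3, 3 and 4 of the 8 were called higher and 1, 0, 1 and 0 lower. The tissue-restricted subunits PSMB11 and PSMA8 were at 0.083 TPM or less in all libraries.

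**Figure D4:**
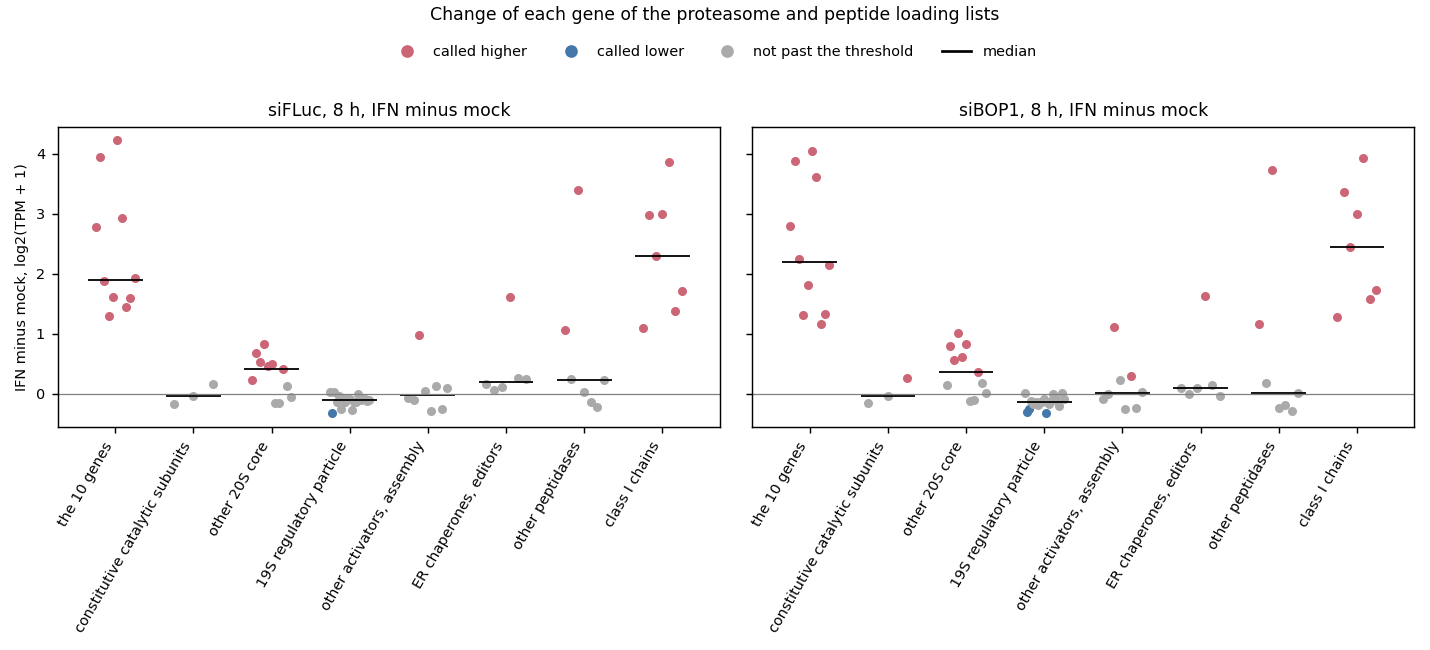
Change under IFN (log2(TPM + 1), IFN minus mock) of each tested gene of the 10 and of 7 further lists, in siFLuc and siBOP1 cells at 8 h. Points are coloured by the limma call and bars are list medians. The 10 genes and the class I chains lie above 1, while the medians of the other 20S subunits are 0.41 and 0.37 and those of the 19S particle -0.10 and -0.13.

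On the loading side, of 6 ER chaperones and editors 1, 3, 1 and 3 were called higher. Of all genes 5.77%, 7.06%, 5.99% and 7.17% were. With the library number as a block 2, 5, 1 and 5 of the 6 were called higher. The counts were 2, 4, 1 and 4 after median-of-ratios rescaling and 1, 2, 1 and 1 after quantile normalization. TAPBPL, a relative of tapasin that edits peptides away from TAP, was called each time, with changes of 1.61, 1.75, 1.63 and 1.96 (adjusted p 6.6e-07 in siFLuc cells at 8 h). It had 3.70, 5.04 and 4.50 TPM in siFLuc mock and 17.2, 14.4 and 15.0 TPM in siFLuc IFN libraries at 8 h. The general chaperones CALR and HSPA5 were the others at 12 h, named after their values were seen, with 0.25 and 0.56 in siFLuc cells. Of 7 other peptidases 2 were called higher in each comparison, with 2 or 3 higher and 0 to 2 lower under the block and the rescalings: LAP3, a cytosolic aminopeptidase, with 3.41, 3.79, 3.74 and 4.02, and LNPEP, an endosomal relative of the ERAPs, with 1.06, 1.11, 1.16 and 1.19. LAP3 went from 32.0, 28.6 and 29.8 TPM to 357, 338 and 294 TPM in siFLuc cells at 8 h, and its log2 change there of 3.41 stands beside 2.79 for PSMB8.

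The class I chains that receive the peptides rose with the 10 genes, with medians of 2.30, 2.61, 2.44 and 2.71. In each comparison 7 of 7 were called higher, against 5.77%, 7.06%, 5.99% and 7.17% of all genes. In siFLuc cells at 8 h the largest rises were those of HLA-F, HLA-E, HLA-B and HLA-C, by 3.87, 3.00, 2.98 and 2.30. These genes are alike in sequence and vary between people, and how shared reads were counted is not stated. Of 10 transcription regulators of the pathway 8, 8, 8 and 7 were called higher, against the same shares of all genes. CIITA, 1 of the 10, reached the filter of 1 TPM through IFN libraries alone. Its calls therefore rest on the group where it is high. In siFLuc cells at 8 h STAT2, NLRC5 and IRF1 rose by 4.20, 3.86 and 2.98. STAT2 carries the type I interferon signal, IRF1 is an induced factor that binds the same element, and NLRC5 is the coactivator of class I promoters. NLRC5 had 4.86, 3.92 and 6.53 TPM in the siFLuc mock and 102, 79.6 and 78.7 TPM in the siFLuc IFN libraries. RFXAP and RFXANK, subunits of the RFX factor that binds class I promoters, were the regulators not called in any of the 4 comparisons without a block. With the library number as a block, or after quantile normalization, 1 regulator was called lower in siFLuc cells at 8 h.

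The 10 genes followed similar profiles over the 24 libraries. With each scaled to the same spread, Pearson r of a gene with the mean profile of the 10 ran from 0.966 (TAPBP) to 0.996 (PSMB8). Each of the 10 is itself part of that mean, which raises its r, while the other genes below are not part of it. Of 10589 other genes with a mean of at least 5 TPM, those with the most similar profile were LAP3 (r 0.999), HLA-E (0.998), IFITM3 (0.998), IFI6 (0.997) and IFI35 (0.997). All points share 1 treatment contrast between 12 and 12 libraries, so these values describe the step under IFN and carry no p.

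No difference between 8 h and 12 h in the response of these genes was called. The time by IFN interaction, the rise at 12 h less that at 8 h, ran in siFLuc cells from -0.36 (TAP1) to 0.62 (TAP2), and in siBOP1 cells from -0.29 (ERAP2) to 0.49 (ERAP1). None of the 10 passed the limma threshold in either (adjusted p 1 for each of these extremes). TAP2 had 0.02 in siBOP1 and ERAP1 -0.01 in siFLuc cells. The PSME2 estimate was above 0 with both siRNAs, at 0.33 in siFLuc (unadjusted limma p 0.00366) and 0.22 in siBOP1 cells (0.0385), and neither was called. The smallest unadjusted p of the 10 genes was that of ERAP1 in siBOP1 cells (0.00322). Of all genes 0 were called higher and 1 lower in siFLuc cells and 0 in siBOP1 cells, while 575 and 603 genes had an unadjusted p under 0.05. The standard errors of these interactions were 0.10 to 0.30, the largest for TAP2, and the missing calls do not show that the rises were equal at both times. Without the siFLuc mock library numbered 2 at 12 h, which had 11.1 TPM, the TAP2 value was 0.42.

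The comparison that the siRNA adds is whether depletion of BOP1 changed the rise under IFN. The siRNA by IFN interaction, the rise in siBOP1 less that in siFLuc cells, ran at 8 h from -0.28 (TAPBP) to 0.68 (TAP2) and at 12 h from -0.13 (TAPBP) to 0.24 (ERAP1). None of the 10 genes was called at either time (limma adjusted p 1 for each of these extremes), nor any gene of the 16062, and 353 and 259 genes had an unadjusted p under 0.05. Without the siBOP1 mock library numbered 2 at 8 h the TAP2 value was 0.39. That library held 7.60 TPM of TAP2, against 13.3 and 16.4 TPM in the other libraries of its group. No call of an interaction does not show that the rises were equal.

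The level of some of the 10 genes was nevertheless slightly higher with siBOP1. Within single conditions TAPBP was the one gene past the threshold. In mock cells at 8 h it had 43.2, 38.2 and 37.2 TPM with siFLuc and 63.3, 58.4 and 51.7 TPM with siBOP1, so that all 3 siBOP1 libraries were above all 3 siFLuc libraries. The difference was 0.53 on the log2 scale (SE 0.14, limma adjusted p 0.0482). This is 1 of 10 genes called higher and 0 lower, against 1.49% of all genes tested called higher and 0.666% lower. The call was close to the threshold: leaving out any 1 of the 6 libraries ended it (adjusted p 0.0593 to 0.201), as did 5 of 10 other settings (0.000565 to 0.13 over the 10), the median-of-ratios (0.13) and quantile (0.106) rescalings among them. The largest difference in the other direction was that of TAP2, -0.58 (SE 0.21, limma adjusted p 0.188), which was -0.29 without the siBOP1 library numbered 2.

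At 12 h without IFN none of the 10 was called, against 0.903% of all genes higher and 0.697% lower. The TAPBP difference there was 0.32 (limma adjusted p 0.331). Under IFN at 8 h none was called, against 1.25% higher and 0.760% lower. There PSMB10 had 159, 166 and 152 TPM with siFLuc and 198, 214 and 226 TPM with siBOP1, without overlap, a difference of 0.42 (SE 0.13, limma adjusted p 0.0985). Under IFN at 12 h none was called, against 0.392% higher and 0.268% lower, and PSMB10 again had the largest difference, 0.32 (adjusted p 0.383), which was 0.13 without the siFLuc library numbered 4. With the library number as a block, 3 differences passed in these conditions. They were TAPBP at 12 h without IFN (limma adjusted p 0.0187), and PSMB10 (0.0366) and TAPBP (0.0488) under IFN at 8 h. In mock cells at 8 h 2 of the 10 were called with that block, a gene other than TAPBP among them, whose value is not reported here. The shares of all genes above are for the fit without a block. Counts at an unadjusted p under 0.05 over all genes were 2076, 2051, 2191 and 1444 in the 4 conditions.

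Averaged over the 4 conditions, which puts 12 siBOP1 against 12 siFLuc libraries, 5 of the 10 genes were called higher with siBOP1 and 0 lower, against 10.0% of all genes tested called higher and 6.91% lower. They were TAPBP, PSMB9, PSMB10, TAP1 and PSMB8, that is, all 3 inducible catalytic subunits, 1 of the 2 transporter subunits and tapasin. TAPBP differed by 0.32 (SE 0.07, limma adjusted p 0.00255), with 0.53, 0.32, 0.26 and 0.19 in mock cells at 8 h and 12 h and IFN cells at 8 h and 12 h. PSMB9 differed by 0.25 (adjusted p 0.0236), PSMB10 by 0.22 (0.0195), TAP1 by 0.20 (0.0284) and PSMB8 by 0.16 (0.0171). For each of these 5 the difference was above 0 in all 4 conditions and for each of the 3 library numbers. The median over the 10 was 0.11 and that over all genes -0.0007. PSME1, PSME2, TAP2, ERAP1 and ERAP2 had 0.07, 0.07, -0.09, 0.07 and 0.04 and were not called.

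TAPBP in mock cells at 12 h had 45.2, 52.5 and 44.3 TPM with siFLuc and 59.1, 62.6 and 55.6 TPM with siBOP1, again without overlap. Under IFN it had, siFLuc first here and below, 126, 105 and 98.3 against 141, 146 and 107 TPM at 8 h, and 140.1, 150.3 and 117 against 149, 188 and 131 TPM at 12 h. These IFN groups overlapped, with the library numbered 4 the lowest in each. PSMB9 had 9.35, 12.0 and 11.2 against 13.7, 12.5 and 16.8 TPM in mock cells at 8 h and 12.9, 16.5 and 9.60 against 13.8, 16.6 and 12.4 TPM at 12 h. Under IFN PSMB9 had 193, 181 and 173 against 226, 227 and 220.1 TPM at 8 h and 229.5, 237 and 192 against 269, 249.6 and 230.3 TPM at 12 h. The siBOP1 libraries of PSMB9 were all above the siFLuc libraries at 8 h, with and without IFN, and overlapped them at 12 h.

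TAP1 had 15.4, 14.1 and 19.8 against 20.8, 18.9 and 25.6 TPM in mock cells at 8 h and 20.2, 20.5 and 24.0 against 22.6, 22.2 and 25.5 TPM at 12 h. Under IFN TAP1 had 357, 313 and 302 against 388, 380.2 and 357 TPM at 8 h and 344, 355 and 291 against 354, 372 and 319.9 TPM at 12 h. The siRNA groups of TAP1 overlapped in all 4 conditions. PSMB8 had 26.6, 28.3 and 32.0 against 32.8, 33.1 and 35.4 TPM in mock cells at 8 h and 35.03, 35.7 and 29.3 against 36.6, 34.1 and 32.7 TPM at 12 h. Under IFN PSMB8 had 225, 202 and 189 against 234, 244 and 241 TPM at 8 h and 235, 229.7 and 209.8 against 256, 234 and 253 TPM at 12 h. Like PSMB9, its siBOP1 libraries lay above the siFLuc libraries at 8 h, with and without IFN, and overlapped them at 12 h. PSMB10 had 43.8, 43.2 and 40.4 against 43.1, 46.5 and 41.5 TPM in mock cells at 8 h and 38.2, 46.8 and 43.5 against 44.1, 43.6 and 50.2 TPM at 12 h. Under IFN PSMB10 had 159, 166 and 152 against 198, 214 and 226 TPM at 8 h and 199, 219 and 139.7 against 245, 245 and 198 TPM at 12 h. For PSMB10 the groups lay apart under IFN at 8 h and overlapped in the other 3 conditions. In mock cells at 12 h the library numbered 2 was lower with siBOP1 than with siFLuc for PSMB8 and PSMB10.

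These differences, 0.16 to 0.32, are small beside the rises under IFN, 1.17 to 4.23, and 4 of the 5 calls depended on the settings. The TAPBP call held in each of 24 fits that left out 1 library and in each of 9 other settings. The median-of-ratios rescaling kept 2 of the 5 calls, TAPBP and TAP1, and quantile normalization kept 3, TAPBP, PSMB10 and TAP1. Without a filter on low values 3 were kept, TAPBP, PSMB10 and PSMB8. PSMB9 lost its call in 5 of 9 other settings (adjusted p of up to 0.0892). TAP1 lost its call in 6 of the 24 fits that left out 1 library, with adjusted p of up to 0.0562. Those libraries were siFLuc mock number 2, siFLuc IFN number 4 and siBOP1 mock number 4 at 8 h, and siFLuc IFN number 4, siBOP1 mock number 4 and siBOP1 IFN number 2 at 12 h. Among the related lists, 4 of 7 class I chains were called higher with siBOP1 over the 4 conditions, and none of the constitutive subunits PSMB5, PSMB6 and PSMB7. Other listed genes, named after their values were seen, were called in both directions. Higher were the ER genes CANX (0.26) and PDIA3 (0.22), the proteasome genes PSMA1, PSMA6, PSMD3 and PSMG4, and the peptidases LAP3 and BLMH. Lower were CALR (-0.18), PSMC5, PSME4 and the regulator RFX5 (-0.33). Of all genes tested 10.0% were called higher there and 6.91% lower. Of the epithelial markers, 1 of 5 was called higher and 3 lower in the same comparison, and their part in these values was not tested.

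**Figure D5:**
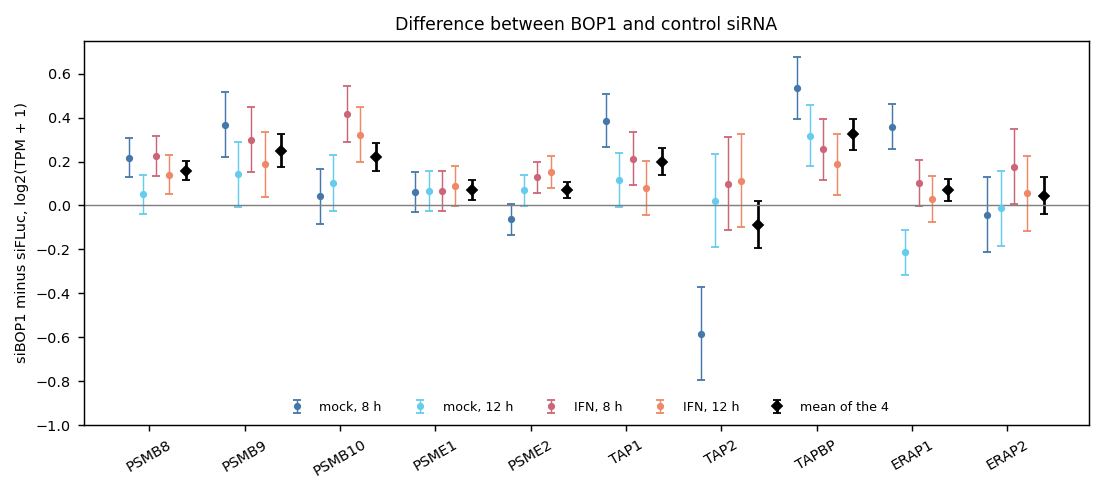
Difference between siBOP1 and siFLuc cells (log2(TPM + 1)) of each of the 10 genes in the 4 conditions and averaged over them. Points are limma estimates and bars their standard errors. The averaged values lie between -0.09 (TAP2) and 0.32 (TAPBP).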

How the data were processed

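Polyadenylated RNA of A549 cells was sequenced after a stranded mRNA library preparation, per the labels' protocols. The authors deposited 1 table of TPM values (60609 rows, 24 columns that each sum to 1000000); aligner, quantifier, build and annotation are not given in the sources used here. TPM keeps no depth, so the precision rests on the 3 libraries a group. No column was left out, none were identical, and Pearson r within groups was 0.961 to 0.988. Symbols matched 60340 row IDs, and positions are those of GENCODE 29 on GRCh38, which held 58502.

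The members, lists and tests were chosen with earlier results of these data known. The 13 comparisons were fitted in limma 3.58.1 (R 4.3.3) to log2(TPM + 1), with eBayes and its trend, 1 mean per group and no block, and adjusted over all 16062 genes within each. Pair ratios were tested by exact permutation (numpy 2.4.6), and both scripts were tested on simulated data. All 10 genes, PSMB5, PSMB6, PSMB7 and PSME3 were named by rule. So were at most 4 called genes of each other list, those with the largest change in siFLuc cells at 8 h, and the 5 genes most alike in profile. Other genes were named after their values were seen. Single values of some listed genes are not reported here.

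Same-numbered libraries deviated together: over 8 comparisons of 2 groups the correlation of their deviations was 0.115 to 0.508 for all 3 numbers. Blocked values or counts are therefore printed where they change a call. For the labelled numbers 1 and 2 alone it was -0.012 to 0.156. Alternatives were a pseudocount of 0.1, no filter, a mean of at least 5 TPM, median-of-ratios and quantile rescaling, no trend, only the groups compared, both blocks, libraries 1 and 2 alone, and each library left out.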

Additional observations from a re-analysis of the deposited data

How the results depend on the processing

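Under IFN, the 10 calls in each of the 4 comparisons and the 3 pair ratios kept direction and threshold in all settings run. No interaction of the 10 genes was called in any setting. The siBOP1 results depended on the fit. In mock cells at 8 h the count of 1 called gene became 0 with no filter, with either rescaling, without the trend and with only the groups compared, and 2 with libraries 1 and 2 alone. With a replicate block it was 3 (labelled numbers) or 2 (column number), and it ran from 0 to 1 when 1 library was left out (0 without siFLuc library 2 or siBOP1 library 1, 2 or 4; without siFLuc library 1 or 4 a gene other than TAPBP passed). With the replicate block by column number it was 1 in mock cells at 12 h and 2 under IFN at 8 h, against 0 without it, and with labelled numbers 1 under IFN at 8 h, where PSMB10 passed (adjusted p 0.0318). TAP2 in mock cells at 8 h passed with that block (-0.83, adjusted p 0.0492). The replicate block changed no IFN or interaction call of the 10 genes. The averaged count of 5 became 3 with no filter, 2 with median-of-ratios rescaling, 3 with quantile normalization, and 4, without PSMB9, with the replicate block on labelled numbers (adjusted p 0.0513) or libraries 1 and 2 alone (0.0586). It was 4 to 5 when 1 library was left out. ERAP1 under IFN at 12 h (0.03) ran from -0.0301 to 0.10, below 0 without siFLuc library 4 or siBOP1 library 2, and the averaged ERAP2 value (0.04) from -0.0076 to 0.0900, below 0 without siFLuc mock library 2 at 12 h. The cause of these changes was not tested. Depth is unknown, so no limit of detection was set.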

Other observations

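The long non-coding RNA PSMB8-AS1, which overlaps PSMB8, PSMB9 and TAP1, went from a mean of 2.18 TPM in the 12 mock to 27.05 TPM in the 12 IFN libraries. CIITA, the class II counterpart of NLRC5, had 0.227 TPM or less in mock and 0.281 to 1.43 TPM in IFN libraries. It reached the filter of 1 TPM through IFN libraries alone, so its calls among the regulators rest on the group where it is high. NLRC5 had 78.4 to 102 TPM under IFN. IRF1 had 112.6 TPM in the siFLuc mock library numbered 4 at 12 h, against a median of 32.0 TPM over the 12 mock libraries and a lowest value of 207 TPM under IFN. B2M, the light chain of class I, was the most abundant transcript of the pathway lists, with 818 to 1056 TPM in mock and 2646 to 4681 TPM in IFN libraries.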
